A study of Mus musculus with 6 samples.

Results

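The transcripts described here encode the unfolded protein response and the folding machinery of the endoplasmic reticulum (ER). They are 36 genes, listed by name and found by mouse symbol, through the Ensembl gene identifier, among the 56750 rows of the deposited table of TPM, a transcript's share of each library corrected for its length. All 36 had a row. By role, 3 encode stress sensors and 3 transcription factors, 17 chaperones and folding enzymes, 6 proteins of ER-associated degradation, 4 subunits at the translocation channel and 3 further targets of the transcription factor ATF4. RNA came from bone marrow cells of C57BL/6 mice sorted from the femurs as LSK cells (lineage-negative, Sca1-positive, cKit-positive), a fraction in which blood stem cells and early progenitors are found. In the DIC group, 3 mice had colitis induced by dextran sulfate sodium (DSS) at 2.5% for 5 days. The control group had 3 mice whose label gives no agent, and the labels do not state sex or age. Libraries are named by their column numbers, DIC 1, 2 and 3 and control 1, 2 and 4. Nothing beyond the 3 mice per group describes the replication, and p-values cover the spread among these 6 libraries.

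When unfolded protein collects in the ER, the kinase and nuclease IRE1 (Ern1), the kinase PERK (Eif2ak3) and the membrane-bound factor ATF6 respond. IRE1 splices the Xbp1 message, PERK favours translation of Atf4, and ATF6 is cut to release a transcription factor. XBP1 and ATF6 raise chaperones and degradation components, while ATF4 raises amino acid enzymes and the pro-apoptotic factor CHOP (Ddit3). Hematopoietic stem cells make little protein and are sensitive to ER stress, and the SEL1L and HRD1 (Syvn1) degradation complex is needed to maintain them in mice. Gene-level TPM does not record Xbp1 splicing, ATF6 cleavage or translation of Atf4.

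The target genes can be recognised in part from their promoters. RefSeq promoter windows on GRCm38.p6 were matched by symbol for 31 of the 36 genes, and the 250 bases before the annotated start were searched on both strands. There was no entry for Manf, Derl1, Atf6, Hyou1 and Sec61a1. The ER stress response element (ERSE), which is CCAAT and CCACG with 9 bases between them, stood in 9 of the 31 windows and in 0.11% of all 32851 windows of this length. All of its matches hold the letters CCACG, which alone stood in 21 of the 31 windows and in 28.3% of all windows. The 10 elements found are shown because 9 listed genes share them, read in the direction of the motif with 6 bases on either side and with the CCAAT and CCACG parts in capitals:
Hspa5, chr2:34772019-34772049, plus strand: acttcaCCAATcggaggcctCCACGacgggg
Hsp90b1, chr10:86705632-86705662, minus strand: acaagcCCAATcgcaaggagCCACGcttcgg
Hsp90b1, chr10:86705527-86705557, plus strand: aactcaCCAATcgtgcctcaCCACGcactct
Dnajc3, chr14:118937821-118937851, plus strand: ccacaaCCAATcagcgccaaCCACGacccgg
Creld2, chr15:88819514-88819544, minus strand: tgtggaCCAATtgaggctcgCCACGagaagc
Calr, chr8:84847069-84847099, plus strand: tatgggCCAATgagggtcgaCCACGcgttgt
Canx, chr11:50325794-50325824, minus strand: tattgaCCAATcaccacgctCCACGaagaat
Pdia6, chr12:17266485-17266515, plus strand: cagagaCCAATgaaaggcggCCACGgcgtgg
Syvn1, chr19:6046526-6046556, plus strand: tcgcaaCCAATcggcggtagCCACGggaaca
Derl3, chr10:75893236-75893266, minus strand: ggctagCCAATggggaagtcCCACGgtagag

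Hspa5 encodes BiP, the main ER chaperone of the HSP70 family, and Calr encodes the calcium-binding chaperone calreticulin. Their windows are shown whole as examples of a promoter with an element close to the start and farther from it, with the element in capitals as it stands on the strand of the gene. In Hspa5 the element began 65 bases before the start and in Calr 162 bases before it:
Hspa5, chr2:34771840-34772089, plus strand: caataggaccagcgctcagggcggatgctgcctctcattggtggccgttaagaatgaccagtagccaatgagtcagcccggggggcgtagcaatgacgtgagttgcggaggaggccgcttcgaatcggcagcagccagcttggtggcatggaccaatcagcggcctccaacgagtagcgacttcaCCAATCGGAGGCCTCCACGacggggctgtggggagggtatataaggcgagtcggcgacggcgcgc
Calr, chr8:84846932-84847181, minus strand: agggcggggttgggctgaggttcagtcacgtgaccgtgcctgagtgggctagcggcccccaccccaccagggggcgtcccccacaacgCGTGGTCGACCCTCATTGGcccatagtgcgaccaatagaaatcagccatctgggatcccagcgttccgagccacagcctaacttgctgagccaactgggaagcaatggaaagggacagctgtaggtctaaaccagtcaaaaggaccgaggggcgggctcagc

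The ATF4 response element, spelled TGATGNAAN, stood in 3 of the 31 windows, those of Herpud1, Chac1 and Asns, and in 3.44% of all windows. The element TGACGTGG, an XBP1 and ATF6 site, stood in 0 of the 31 and in 0.56% of all windows. A match describes letters in a window and no match says only that these letters were not in it. The 3 ATF4 elements are shown in the direction of the motif, with the element in capitals:
Herpud1, chr8:94386310-94386330, minus strand: gcgggcTGATGCAACccgccg
Chac1, chr2:119351042-119351062, minus strand: caggagTGATGCAACggcagg
Asns, chr6:7693218-7693238, minus strand: gccacaTGATGAAACttcccg

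The libraries differed in more than ER genes. The 11 neutrophil markers took 14.7% to 21.8% of all TPM in DIC and 3.995%, 11.98% and 2.89% in controls 1, 2 and 4. Of these markers, 8 were higher in every DIC library than in every control and none was listed at 0. The 6 basophil and mast cell markers summed to 300.0 to 480.1 TPM in DIC against 908 to 3364 TPM in control, with all 6 lower in every DIC library and none at 0. The 8 markers of plasma cells, which have a large ER, summed to 471 to 1164 TPM in DIC. In control they summed to 332 to 620.5 TPM, and most of each sum was Igkc and Ighm. Sdc1 alone of the 8 was apart, and it was lower in DIC. Jchain measured 132, 26.9 and 55.2 TPM in DIC 1, 2 and 3 against 3.39, 30.5 and 6.68 TPM in controls 1, 2 and 4. For Jchain and Igkc, control 2 lay inside the DIC range and the log2 fold changes were 2.54 and 2.25. Those of Mzb1, Sdc1 and Ighm were -0.65, -0.40 and -0.01. None of the 8 was at 0, but Tnfrsf17, Irf4 and Prdm1 were too low to be tested. Kit and Ly6a, the genes of the sort, were at 82.3 to 95.2 and 15.5 to 23.8 TPM in DIC against 54.2 to 99.5 and 19.6 to 49.9 TPM in control. Of 5 promyelocyte genes, Mpo was at 10026 to 12402 TPM in DIC and 11639 to 13183 TPM in control. Ctsg alone was apart, at 1785, 2173 and 1907 TPM in DIC 1, 2 and 3 against 3304, 2221 and 3713 TPM in controls 1, 2 and 4. The log2 fold changes of Mpo, Elane, Prtn3, Ctsg and Ms4a3 were -0.17, -0.05, -0.47, -0.63 and -0.18. The part of these cell types in the results below was not tested beyond the settings named there, and in bulk RNA fewer cells of a type and less RNA per cell cannot be told apart.

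As a whole, the ER genes were lower in DIC, and none passed the test as a single gene. Their summed level was 5269.8, 6099 and 6415 TPM in DIC 1, 2 and 3, against 9139, 6657 and 8095 TPM in controls 1, 2 and 4. The groups did not overlap, and control 2 lay closest to DIC. The mean was 5928 ± 591 TPM in DIC and 7964 ± 1246 TPM in control (SD, n = 3 each). With 3 libraries in each group, the smallest two-sided p of an exact permutation test is 0.1. Of the 36 genes, 35 had at least 1 TPM in at least 3 libraries and were tested, Trib3 being left out. Of these, 29 had a negative and 6 a positive log2 fold change, where 58.5% of all genes tested were negative. The median was -0.26 on the log2(TPM + 1) scale, against -0.08 over all 13496 genes tested. By limma with Benjamini-Hochberg adjustment over all genes, 0 of the 35 were called in either direction, where 0.037% of all genes were called higher and 0.0222% lower. At an unadjusted p under 0.05, 9 were lower and 1 higher, where 13.8% of all genes were lower and 6.43% higher. In 12 of the 35 every DIC library lay below every control, where 18.4% of all genes did, and in 0 every DIC library lay above, where 7.08% did.

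The size of the difference depended on how the libraries were scaled. With the 11 neutrophil markers removed and TPM rescaled, the median of all genes moved from -0.08 to 0.09 and that of the ER genes to -0.06, so that the ER genes stayed 0.15 below. The summed level was then 6738, 7152 and 7842 TPM in DIC 1, 2 and 3 against 9519, 7563 and 8336 TPM in controls 1, 2 and 4, and control 2 lay inside the DIC range. On that scale 6 of the 35 genes were apart and lower in DIC, where 8.41% of all genes were, and 1 was apart and higher, where 13.0% were. After quantile normalization the median of the ER genes was -0.11 and that of all genes -0.04. This difference of -0.07 compares with -0.17 as deposited. After that normalization 7 of the 35 genes were apart and lower, where 12.5% of all genes were. Sdf2l1, Ppib, Herpud1, Derl3, Sec61b and Ssr4 kept the groups apart on all 3 scales. A fit that also held a neutrophil score was added once the data had been seen. In it the median of the ER genes was -0.09 and that of all genes -0.11. Of the 11 markers in the score, 8 were higher in every DIC library than in every control. This fit therefore cannot clearly separate the score from the group.

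**Figure D1:**
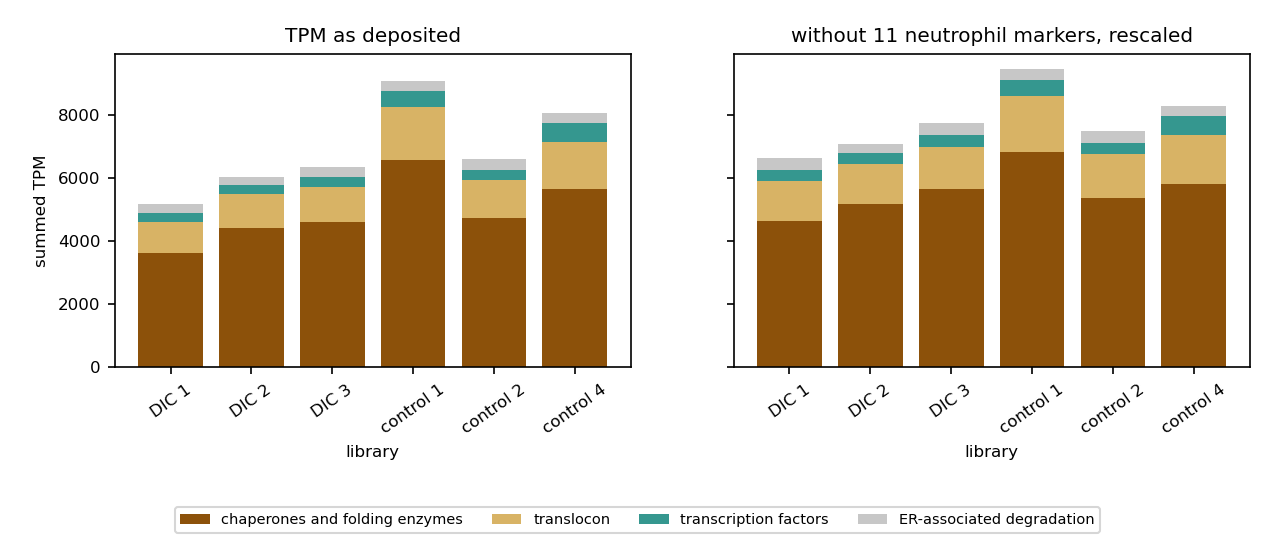
Summed TPM of 4 role groups in each library, as deposited (left) and after 11 neutrophil markers were removed and TPM rescaled (right). Bars are stacked by role and start at 0; chaperones and folding enzymes made up most of the sum, from 3630 TPM in DIC 1 to 6554 TPM in control 1 as deposited, and on the right the DIC and control sums of the chaperones overlap while those of the translocon do not.

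The sensors did not separate the groups. Atf6 measured 7.53, 5.97 and 6.82 TPM in DIC 1, 2 and 3 against 8.52, 5.79 and 7.62 TPM in controls 1, 2 and 4. Ern1 measured 10.3, 12.3 and 13.2 TPM in DIC against 11.9, 10.9 and 18.9 TPM in control. Eif2ak3 measured 7.54, 3.33 and 7.48 TPM in DIC against 5.40, 6.52 and 4.02 TPM in control. In all 3 genes the groups overlapped. Their log2 fold changes were -0.09 ± 0.19, -0.17 ± 0.23 and 0.13 ± 0.32 (SE), with limma adjusted p of 0.822, 0.688 and 0.841, and each took the other sign in 2 to 5 of the 14 alternative settings.

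The transcription factors showed 2 patterns. Xbp1 (ENSMUSG00000020484) was nearly constant within each group, at 183, 178 and 186 TPM in DIC 1, 2 and 3 against 201.5, 202 and 201 TPM in controls 1, 2 and 4. The groups did not overlap, but the difference was small, with a ratio of means of 0.905 and a log2 fold change of -0.14 ± 0.10 (SE, limma adjusted p = 0.439). It was 0.05 with the neutrophil markers removed and 0.06 after quantile normalization, so its sign depended on the scaling. Xbp1 had the narrowest range of all 36 genes, with the highest library at 1.14 times the lowest.

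Atf4 (ENSMUSG00000042406) measured 81.8, 94.97 and 103 TPM in DIC 1, 2 and 3 against 201, 90.3 and 253 TPM in controls 1, 2 and 4. Ddit3 (ENSMUSG00000025408), which encodes CHOP, measured 17.7, 18.6 and 24.3 TPM in DIC against 85.5, 21.2 and 132 TPM in the same controls. In both genes controls 1 and 4 were high, and control 2 lay inside the DIC range. The mean of Ddit3 was 20.2 ± 3.57 TPM in DIC and 79.6 ± 55.6 TPM in control (SD, n = 3 each), so the control spread was wide. The log2 fold changes were -0.83 ± 0.36 for Atf4 and -1.59 ± 0.60 for Ddit3 (SE, limma adjusted p = 0.248 and 0.221). Ddit3 had the widest range of the 36 genes, with the highest library at 7.46 times the lowest. Without control 2 the log2 fold changes of Atf4 and Ddit3 were -1.27 ± 0.15 and -2.35 ± 0.23, with limma adjusted p of 0.0166 and 0.0123. In that fit 8.45% of all genes were called lower. Leaving out the only control inside the DIC range has to widen the difference, so these p-values add no separate evidence. With the neutrophil score in the fit, which cannot clearly separate score from group, Atf4 was at 0.18 and Ddit3 at -0.02. Exons of Ddit3 overlap those of Mars on the opposite strand in the GENCODE M21 annotation, and the sources do not say whether reads were assigned by strand, so reads of the pair cannot be told apart. Mars itself was at 48.6 to 52.2 TPM in DIC and 51.9 to 70.9 TPM in control.

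**Figure D2:**
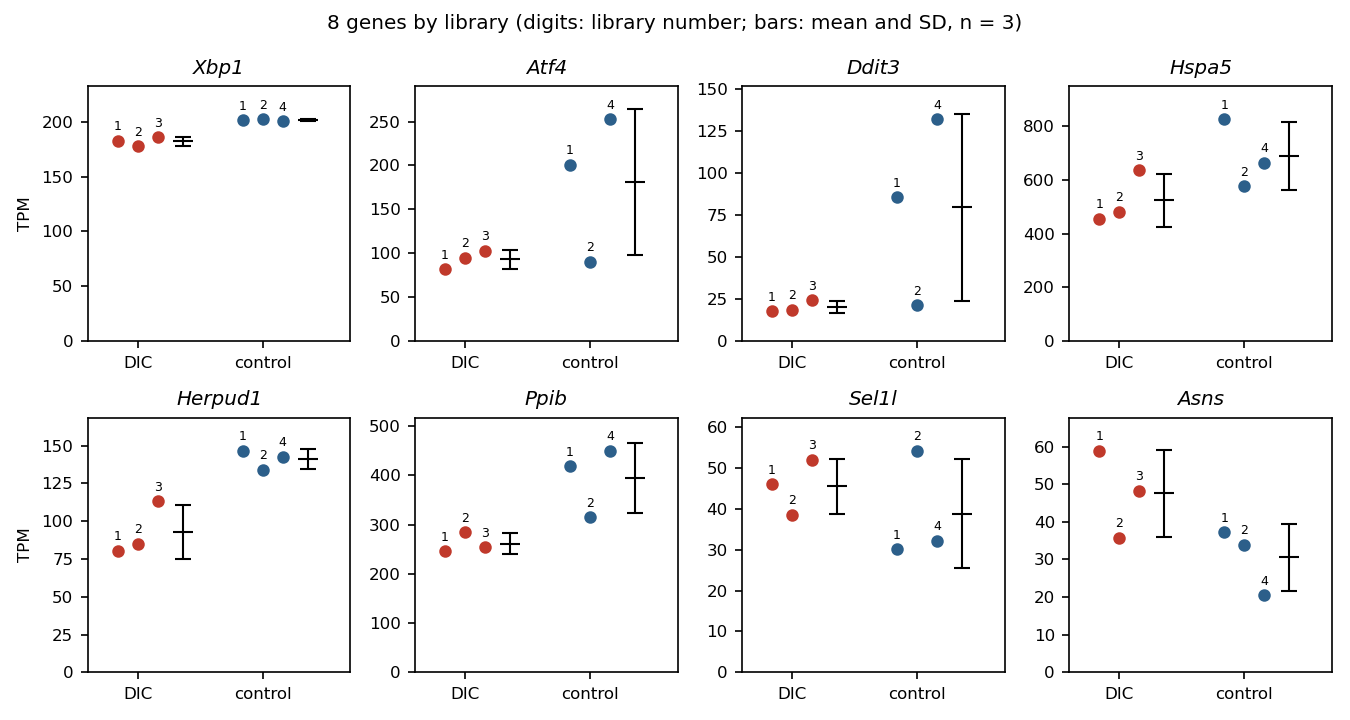
TPM of 8 genes by library, DIC left and control right, with the mean and SD (n = 3) beside the points and the library number above each point. Atf4 and Ddit3 are high in controls 1 and 4 only, with control 2 among the DIC libraries; Xbp1, Herpud1 and Ppib separate the groups on this scale, Xbp1 losing its sign under the other scalings.

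The chaperones and folding enzymes held most of the transcripts and most of the lower values. Their summed level was 3630, 4404 and 4606 TPM in DIC 1, 2 and 3 against 6554, 4723 and 5632 TPM in controls 1, 2 and 4. All 17 were tested, 15 of them below 0, where 58.5% of all genes were. The median was -0.39 (all genes -0.08). It was -0.20 with the neutrophil markers removed (all genes 0.09) and -0.13 after quantile normalization (all genes -0.04). None of the 17 passed the test, with limma adjusted p from 0.212 to 0.925. At an unadjusted p under 0.05, 5 were lower, where 13.8% of all genes were. In 7 of the 17 the groups did not overlap, all lower in DIC, where 18.4% of all genes did so. Of these 7, Sdf2l1 and Ppib stayed apart on both other scales.

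Hspa5 (ENSMUSG00000026864), whose promoter is shown above, measured 455, 481 and 637 TPM in DIC 1, 2 and 3 against 826, 576 and 664 TPM in controls 1, 2 and 4. DIC 3 exceeded control 2, so the groups overlapped. Hsp90b1, the ER member of the HSP90 family (GRP94) with a pair of elements in its promoter, measured 285, 342 and 368 TPM in DIC against 466, 359 and 338 TPM in control. Here controls 2 and 4 lay inside the DIC range and only control 1 stood above it. The log2 fold changes were -0.39 ± 0.19 and -0.22 ± 0.17 (SE, limma adjusted p = 0.299 and 0.486). The BiP cochaperones of the J-domain family did not separate the groups. Dnajb9, Dnajb11, Dnajc3 and Dnajc10 had fold changes of -0.39, -0.21, 0.03 and -0.18, and the HSP70-like Hyou1 of -0.19.

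The genes of lectin-assisted folding differed from each other. Calr (ENSMUSG00000003814), the most abundant of the 36, measured 726, 1046 and 973 TPM in DIC 1, 2 and 3 against 1573, 1077 and 1427 TPM in controls 1, 2 and 4. The groups were apart by the gap between DIC 2 and control 2, and they overlapped after either rescaling. Canx, which encodes the membrane-bound lectin calnexin, measured 215, 198 and 224 TPM in DIC against 256, 195 and 172 TPM in control. Its values overlapped throughout. Pdia3, the disulfide isomerase that works with both lectins, measured 376, 405 and 448 TPM in DIC against 604, 444 and 587 TPM in control, where control 2 lay just inside the DIC range. The fold changes were -0.57 ± 0.21 for Calr, 0.05 ± 0.17 for Canx and -0.40 ± 0.16 for Pdia3 (SE, limma adjusted p = 0.22, 0.881 and 0.232).

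Among the other isomerases the groups were apart in each case on the deposited scale. Pdia6 measured 233, 284 and 289 TPM in DIC 1, 2 and 3 against 436, 304 and 378 TPM in controls 1, 2 and 4. Pdia4 measured 112, 148 and 155 TPM in DIC against 231, 165 and 169 TPM in control. P4hb, the first described disulfide isomerase, measured 413, 465 and 448 TPM in DIC against 609, 483 and 497 TPM in control. In all 3 the lowest control was control 2, and after removal of the neutrophil markers the groups overlapped. Ppib (ENSMUSG00000032383) encodes cyclophilin B, a proline isomerase of the ER lumen. It measured 246, 285 and 254 TPM in DIC against 418, 315 and 449.7 TPM in control, with a log2 fold change of -0.58 ± 0.16 (SE, limma adjusted p = 0.212). Those of Pdia6, Pdia4 and P4hb were -0.46 ± 0.17, -0.43 ± 0.19 and -0.25 ± 0.14.

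Small soluble ER proteins that are strongly induced by ER stress completed the group. Sdf2l1, a partner of BiP complexes, measured 148, 223 and 221 TPM in DIC 1, 2 and 3 against 370.4, 244 and 339.6 TPM in controls 1, 2 and 4. Creld2 measured 64.1, 119.8 and 119 TPM in DIC against 178, 126 and 133 TPM in control. Both were apart, with DIC 1 far below the other libraries. Sdf2l1 had the most negative fold change of the 17, at -0.69 ± 0.22 (SE, limma adjusted p = 0.212), and Creld2 was at -0.57 ± 0.27 (limma adjusted p = 0.282). Manf, a secreted protein that binds BiP, was at -0.37 ± 0.19 with overlapping groups.

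**Figure D3:**
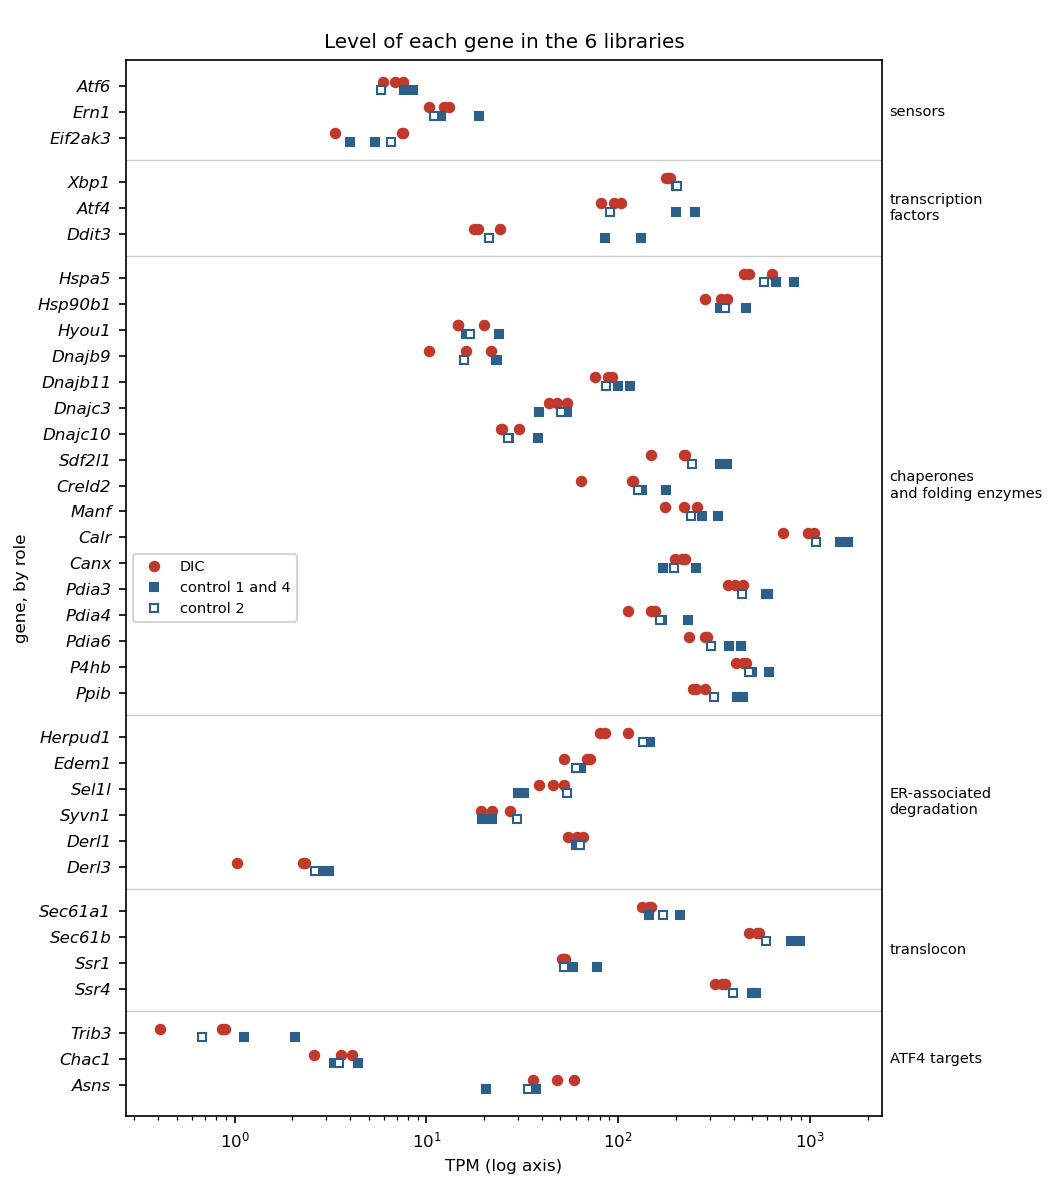
Level of each of the 36 genes in the 6 libraries, in TPM on a log axis, grouped by role. Circles are DIC libraries, filled squares controls 1 and 4 and open squares control 2; control 2 lies nearer to the DIC mean than to the other controls for 15 of the 17 chaperones and folding enzymes.

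The components of ER-associated degradation differed from each other. Herpud1 (ENSMUSG00000031770), a membrane protein that organises the degradation complex, measured 80.5, 85.2 and 113 TPM in DIC 1, 2 and 3 against 147, 134 and 143 TPM in controls 1, 2 and 4. Its groups were apart on all 3 scales, and control 2 sat with the other controls. The mean was 93.0 ± 17.7 TPM in DIC and 141 ± 6.43 TPM in control (SD, n = 3 each). The log2 fold change was -0.61 ± 0.15 (SE), the limma adjusted p was 0.212, and the value stayed between -0.76 and -0.42 over all settings. Derl3, a derlin, was near the limit for testing at 2.28, 1.03 and 2.33 TPM in DIC against 2.87, 2.62 and 3.09 TPM in control.

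The others overlapped. Edem1, which passes misfolded glycoproteins on for degradation, had a fold change of 0.04, Derl1 of -0.03 and the ubiquitin ligase gene Syvn1 of -0.04. Exons of Syvn1 overlap those of Mrpl49 on the opposite strand, so the limit given for Ddit3 holds for Syvn1 too. Mrpl49 was at 34.65 to 46.3 TPM in DIC and 40.0 to 47.9 TPM in control. Sel1l, the adaptor of that ligase, measured 45.9, 38.5 and 52.0 TPM in DIC 1, 2 and 3 against 30.1, 54.1 and 32.1 TPM in controls 1, 2 and 4. Here controls 1 and 4 were the lowest libraries and control 2 the highest, whereas for Ddit3 controls 1 and 4 were the highest. The log2 fold change was 0.26 ± 0.24, and 0.52 ± 0.16 without control 2 (SE, limma adjusted p = 0.554 and 0.0803). The median of the 6 genes was -0.04 (all genes -0.08). It was 0.15 with the neutrophil markers removed (all genes 0.09) and 0.06 after quantile normalization (all genes -0.04).

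At the translocation channel each of the 4 genes was below 0, where 58.5% of all genes were, and their median was -0.37 (all genes -0.08). It was -0.18 with the neutrophil markers removed (all genes 0.09) and -0.13 after quantile normalization (all genes -0.04). Sec61b (ENSMUSG00000053317), the small subunit of the channel, measured 478, 540.4 and 531 TPM in DIC 1, 2 and 3 against 891, 591 and 798 TPM in controls 1, 2 and 4. Ssr4, a subunit of the translocon-associated complex, measured 321, 349 and 362 TPM in DIC against 523, 399 and 500.4 TPM in control. Both were apart, on the rescaled values as well, with fold changes of -0.54 ± 0.18 and -0.45 ± 0.14 (SE, limma adjusted p = 0.212 each). Sec61a1, the pore subunit, and Ssr1 overlapped between groups, at -0.29 and -0.26. The summed level was 984, 1087 and 1092 TPM in DIC against 1702, 1215 and 1501 TPM in control. After the neutrophil markers were removed it was 1259, 1275 and 1335 TPM against 1773, 1381 and 1546 TPM, still without overlap.

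Of the 2 ATF4 targets tested, Asns had the only fold change above 0. Asns (ENSMUSG00000029752), the asparagine synthetase whose ATF4 element is shown above, measured 58.9, 35.8 and 48.3 TPM in DIC 1, 2 and 3 against 37.3, 33.9 and 20.5 TPM in controls 1, 2 and 4. DIC 1 was the highest and control 4, where Atf4 was highest, the lowest. Of the DIC libraries, DIC 2 alone lay below control 1, and the log2 fold change was 0.64 ± 0.27 (SE, limma adjusted p = 0.243). Asns was apart and higher in DIC after both rescalings. With the neutrophil score in the fit, which cannot clearly separate score from group, it was at -0.08. Chac1, a glutathione-degrading enzyme, measured 3.59, 4.10 and 2.59 TPM in DIC against 4.42, 3.49 and 3.31 TPM in control. Trib3, a pseudokinase, was at 0.41 to 0.89 TPM in DIC and 0.68 to 2.07 TPM in control and was not tested. Neither separated the groups.

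Ratios between 2 genes in the same library, on the deposited scale, are not changed by rescaling a whole library, though quantile normalization can change them. Those given here were chosen after the values were seen. Asns over Ddit3 was 3.33, 1.92 and 1.99 in DIC 1, 2 and 3 against 0.436, 1.60 and 0.155 in controls 1, 2 and 4, without overlap. Ddit3 over Hspa5 was 0.0389, 0.0387 and 0.0381 in DIC, and 0.104, 0.0368 and 0.199 in control. Ddit3 was thus a near-constant fraction of Hspa5 in the DIC libraries and control 2, and a higher one in controls 1 and 4. Atf4 over Xbp1 was 0.448, 0.534 and 0.553 in DIC against 0.996, 0.446 and 1.26 in control, with the same 2 controls standing out. The summed translocon level over that of the chaperones overlapped between the groups, at 0.237 to 0.271 in DIC and 0.257 to 0.266 in control.

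**Figure D4:**
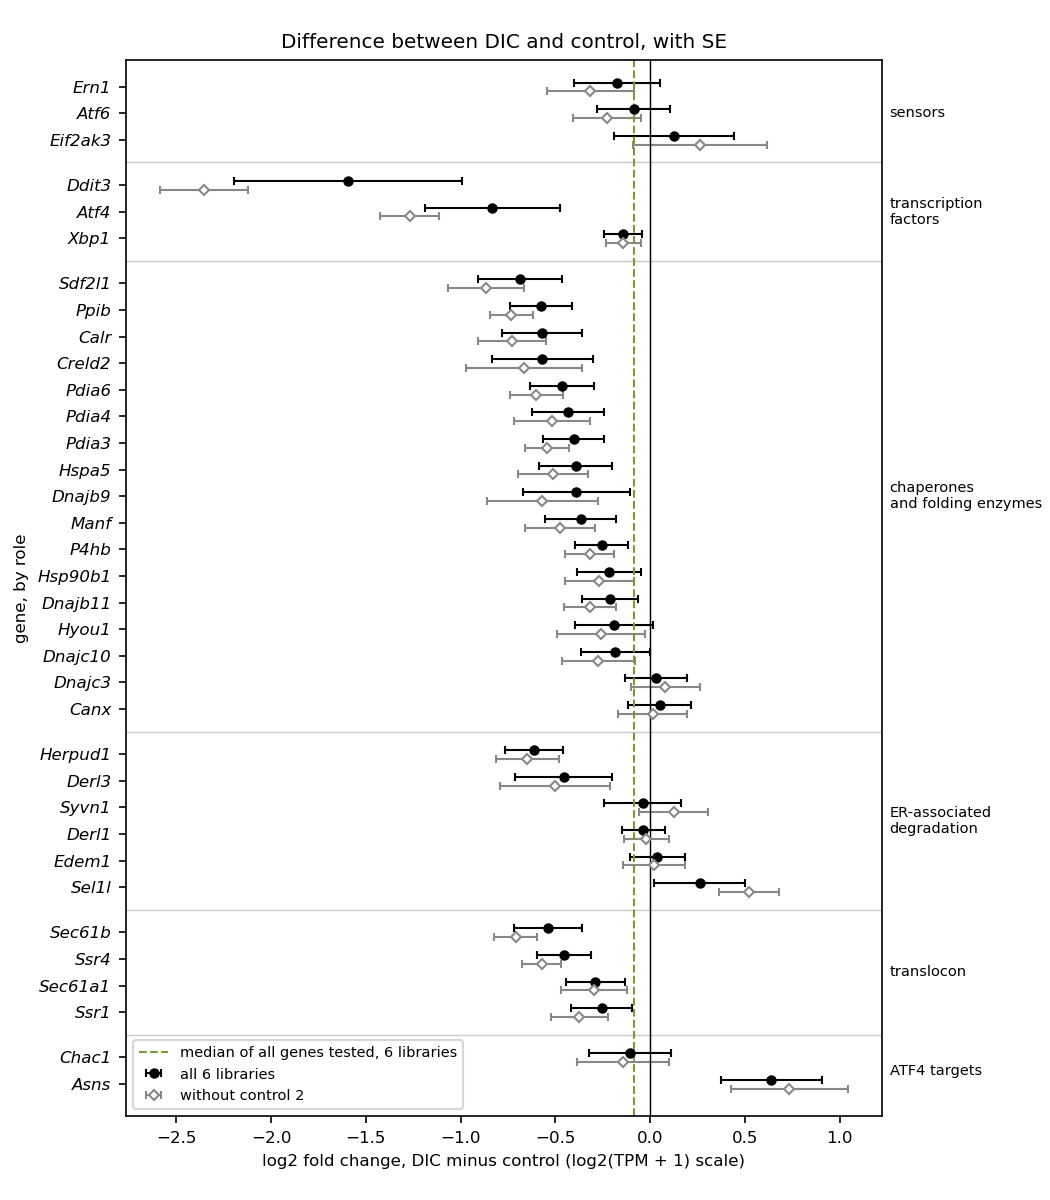
Log2 fold change, DIC minus control, of the 35 tested genes on the log2(TPM + 1) scale, with SE, in all 6 libraries (filled) and without control 2 (open). The dashed line is the median of all genes tested, -0.08; Ddit3 and Atf4 shift most when control 2 is left out, to -2.35 and -1.27. Signs of values near 0 depend on the scaling.

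Single libraries stood at the ends of the range. DIC 1 was the lowest of the 6 libraries for 20 of the 35 tested genes, where it was the lowest for 25.0% of all genes tested. Control 1 was the highest for 22 of the 35, where it was the highest for 24.0% of all. Control 2 lay nearer to the DIC mean than to controls 1 and 4 for 26 of the 35, against 63.2% of all genes. Without control 2, limma called 8 of the 35 lower and 0 higher, where 8.45% of all genes were called lower and 3.93% higher. These were Atf4, Ddit3, Sdf2l1, Pdia3, Pdia6, Ppib, Sec61b and Ssr4. With any other library left out, 0 of the 35 were called, where 0 to 16 of all 13496 genes were called higher and 0 to 4 lower.

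The 9 genes with an ERSE had a median log2 fold change of -0.39, from -0.57 in Calr to 0.05 in Canx, and 4 of the 9 were apart and lower. The 21 tested genes with a window and no ERSE had a median of -0.26, and 8 of the 21 were apart and lower, where 18.4% of all genes were. With the neutrophil markers removed, Derl3 remained apart among the genes with an ERSE, and Sdf2l1, Ppib, Herpud1, Sec61b and Ssr4 among those without. Both ranges overlapped, and the difference between them was not tested.

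The wider pathway was described by another list. A list of 93 further genes of ER folding, degradation, translocation, traffic and the ATF4 branch had 89 tested, with a median of -0.19. Limma called 0 of the 89, and 19 were lower and 1 higher at an unadjusted p under 0.05, where 13.8% of all genes were lower and 6.43% higher. In 22 the groups were apart and lower and in 2 apart and higher, where 18.4% and 7.08% of all genes were. With the neutrophil markers removed the median was -0.0044, where that of all genes was 0.0913. After quantile normalization both medians were -0.037. Without control 2, limma called 17 lower and 1 higher, where 8.45% of all genes were called lower and 3.93% higher.

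By the lowest p, the serine synthesis enzyme Phgdh led, at 114, 181 and 156 TPM in DIC 1, 2 and 3 against 359, 211 and 260.1 TPM in controls 1, 2 and 4. It was followed by Cebpb, a transcription factor of the myeloid lineage and of stress, at 55.0, 57.5 and 54.6 TPM in DIC against 114, 65.4 and 109 TPM in control. The fold changes were -0.87 ± 0.24 and -0.74 ± 0.22 (SE, limma adjusted p = 0.212 each), and both were apart. Selenom, Shmt2, Selenos and Txndc5 came next, at -1.06, -0.72, -0.45 and -0.74, with limma adjusted p of 0.212 to 0.213. Within the ATF4 branch of this list 18 of 20 tested genes were below 0, where 58.5% of all genes were, and their median was -0.41. Control 2 lay inside the DIC range for 13 of these 20, against 44.6% of all genes. Ero1l, an oxidase that recharges the disulfide isomerases, was named after its values were seen. It was at 97.1, 78.0 and 91.8 TPM in DIC against 61.9, 74.4 and 45.0 TPM in control, higher and apart. Its log2 fold change was 0.57 ± 0.20 (SE, limma adjusted p = 0.213). The related oxidase gene Ero1lb was lower and apart, at 10.3, 10.1 and 10.8 TPM in DIC against 13.15, 11.2 and 14.9 TPM in control. Its log2 fold change was -0.30 ± 0.16 (SE, limma adjusted p = 0.326).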

How the data were processed

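The authors deposited TPM values per gene for 6 libraries, rounded to 2 decimals. Each column summed to 1000000 within rounding. The submitters' processing notes name fastp 0.19.5, HISAT2 2.1.0, StringTie 2.1.2 and the build GRCm39; which annotation was counted is not given in the sources here. TPM keeps no sequencing depth, so no counting interval was given; 20474 to 22720 genes lay above 0 per library. StringTie divides reads among overlapping transcripts, which makes values of overlapping genes uncertain. Per the labels' protocols, RNA was amplified with SMART-Seq low-input chemistry.

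Columns 1 and 4 of the controls could be assigned to the group but not to single samples. Symbols came from a GRCm38 annotation by gene identifier, which matched 52081 of 56750 rows. Ddit3 had 2 identifiers, of which the other was listed at 0 in every library. A gene entered the fit where 3 or more libraries reached 1 TPM. The fit used limma 3.58.1 (R 4.3.3) on log2(TPM + 1), with its trend option and no covariate, as DIC minus control. Two-sided p-values were adjusted by Benjamini-Hochberg, and adjusted p under 0.05 counted as called. Fold changes on this scale understate those of low genes, and SE is the moderated standard error. The fit was tested on simulated data. Genes described library by library were the sensors, Xbp1, Atf4, Ddit3, Hspa5, Hsp90b1, Calr and those whose groups did not overlap; of the further genes the 6 with the lowest p were named. Others were named after their values were seen. The gene lists were chosen with earlier results of these data known. A planned description of protein tails was not made, because no protein sequences were used here.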

Additional observations from a re-analysis of the deposited data

How the results depend on the processing

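Over 14 alternatives to the fit, the median log2 fold change of the 35 tested ER genes stayed negative, from -0.41 to -0.06. It was -0.0627 with the neutrophil markers removed and TPM rescaled (all genes 0.0913) and -0.111 after quantile normalization (all genes -0.0367). Leaving out 1 library gave -0.322 to -0.154. Limma called 0 of the 35 higher in every setting. It called 0 lower in every setting except without control 2, so that leaving out 1 library gave 0 to 8. For the 93 further genes it gave 0 to 1 higher and 0 to 17 lower, again from control 2. Without control 2, 8.45% of all genes tested were called lower and 3.93% higher. With another library left out, 0 to 4 of all 13496 genes were called lower and 0 to 16 higher. Of the 35 genes, 16 kept a negative sign in all settings, and 19 took the other sign in at least 1. The cause of these changes was not tested.

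The column numbers 1 and 2 are shared between the groups, but same-numbered libraries did not deviate together (correlation of deviations -0.0676 for number 1 and -0.102 for number 2). With the replicate block the median was -0.410 and 0 ER genes were called. Depth is not recorded in TPM, so the precision of low genes such as Trib3 and Derl3 is unknown.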

Other observations

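Outside the listed genes, 26 genes had an ERSE in the same promoter window. By the same symbol 22 had a row in the table, and 8 of these were tested. Their median log2 fold change was -0.15, 5 of the 8 were negative, where 58.5% of all genes tested were, and 2 were apart and lower in DIC, where 18.4% were. Those 2 were Xlr3a and Xlr3b, near-identical copies that can share reads. Xlr3b measured 2.80, 3.71 and 4.43 TPM in DIC 1, 2 and 3 against 5.36, 7.04 and 8.96 TPM in controls 1, 2 and 4 (log2 fold change -0.80 ± 0.24 SE, limma adjusted p = 0.212). Another of the 26, Ero1b, stands in the table under its older symbol Ero1lb and is not in these counts. As given above, it was tested, and it was apart and lower in DIC. Exons of 11 of the 36 listed genes overlap those of another annotated gene, on the opposite strand in 10.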
